A study of Mus musculus with 9 samples.

Results

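Cells of the mouse cochlear line HEI-OC1 that met hydrogen peroxide (H2O2) after a pre-incubation with the antioxidant nanoreactor HCS@Se were set against untreated cells, to see how far their RNA lay from that of undisturbed cultures. All genes of the deposited count table were taken in the 3 untreated libraries (control) and the 3 libraries of pretreated, oxidant-exposed cells (pretreated H2O2), which are 6 of the 9 libraries of the series. The other 3 libraries, from cells given H2O2 alone, were not used in the comparison. Of 55401 genes in the table, 29462 had a count in these 6 libraries, 17583 passed a filter on low counts and were tested, and 7770 had a mean of 5 or more FPKM in either group. FPKM, computed by the authors, counts fragments per unit of transcript length and of sequencing depth. All 7770 of these genes were among those tested, and they are described most closely.

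HEI-OC1 is an immortalised line made from the organ of Corti of the mouse ear and carries a temperature-sensitive viral large T antigen. Control cells had normal growth and no treatment. The nanoreactor is described by the submitters as an albumin-based particle that holds superoxide dismutase and catalase and a diselenide linker with glutathione peroxidase activity. It is written HCS@Se, SCGS and HSC@Se in different labels, which were taken to be 1 agent. No dose or exposure time is given. No group had the nanoreactor without H2O2, so what the particle did and what the oxidant did cannot be told apart in this comparison. The 3 libraries of a group are called replicate biosamples and are not said to be separate cultures, so p-values measure the spread between these samples, which may be technical.

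Cells answer oxidants through several transcription programmes. The factor p53 responds to DNA damage and switches on cell cycle inhibitors and death genes, NRF2 switches on enzymes of glutathione, thioredoxin and iron chemistry, and the integrated stress response acts through ATF4 to raise amino acid synthesis and import. Sterol synthesis is run by SREBP factors, and the respiratory chain is built from proteins of both the nucleus and the mitochondrial chromosome. Each of these programmes is taken in turn below.

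Libraries held 55395418 to 67215208 deposited counts, which are estimates in whole numbers among which the value 4 stood out, so that 12 counts were taken as 3 fragments. A gene with 12 or fewer counts over a group is given as a level with no fold. Spearman correlations across genes were 0.992 to 0.993 within groups and 0.949 to 0.950 between groups. The share of the FPKM total that differed between 2 libraries was 2.10% to 2.70% within groups and 15.3% to 16.3% between them. Defining markers of hair cells summed to 1.92 to 2.05 FPKM in control and 1.75 to 2.02 in pretreated H2O2, with 5 of 16 markers without a count and none at 5 FPKM. Supporting cell markers summed to 35.9 to 38.4 and 20.2 to 21.8 FPKM, and fibroblast and mesenchyme markers to 1056 to 1065 and 827 to 834 FPKM. Most of the supporting cell sum, and of its fall, came from Cdkn1b, a general cell cycle inhibitor described below. Only 5 of the 14 supporting cell markers were tested, so their sum is not a measure of supporting cells. In bulk RNA, fewer cells of a kind and less RNA per cell cannot be told apart. Markers of neurons (at most 7.06 FPKM in sum), leukocytes (at most 10.1), glia (at most 20.9), endothelium (at most 1.71), epithelium (at most 1.76), melanocytes (at most 1.16) and skeletal muscle (at most 1.57) were low in both groups.

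Genes were compared with edgeR's quasi-likelihood test, and a Benjamini-Hochberg adjusted p under 0.05 over all 17583 genes is named a call. Calls numbered 11358 (64.6%), with 5960 genes (33.9%) above control and 5398 (30.7%) below it. Counts of gene lists below are to be read beside these shares, and a list near them gives no result of its own. A 2-fold change went with the call in 22.8% of the genes tested, upward in 15.2% and downward in 7.56%. Among the 7770 genes at 5 FPKM or more, 5985 (77%) were called, 2958 higher (38.1%) and 3027 lower (39%). Most of these differences were small: the median size of the log2 fold change was 0.30, which is 1.23-fold, and 90% of the genes moved by no more than 1.88-fold. A call together with at least a 2-fold change was found for 651 genes (8.38%), 250 higher (3.22%) and 401 lower (5.16%). At least 4-fold changes were found for 63 genes higher and 76 lower, and at least 8-fold changes for 31 and 13. For 1326 genes (17.1%) the 95% interval of the log2 fold change lay within 0.2 of no change. In counts per library total after scaling, the groups did not overlap for 79.7% of the 7770 genes and 70% of all genes tested.

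**Figure D1:**
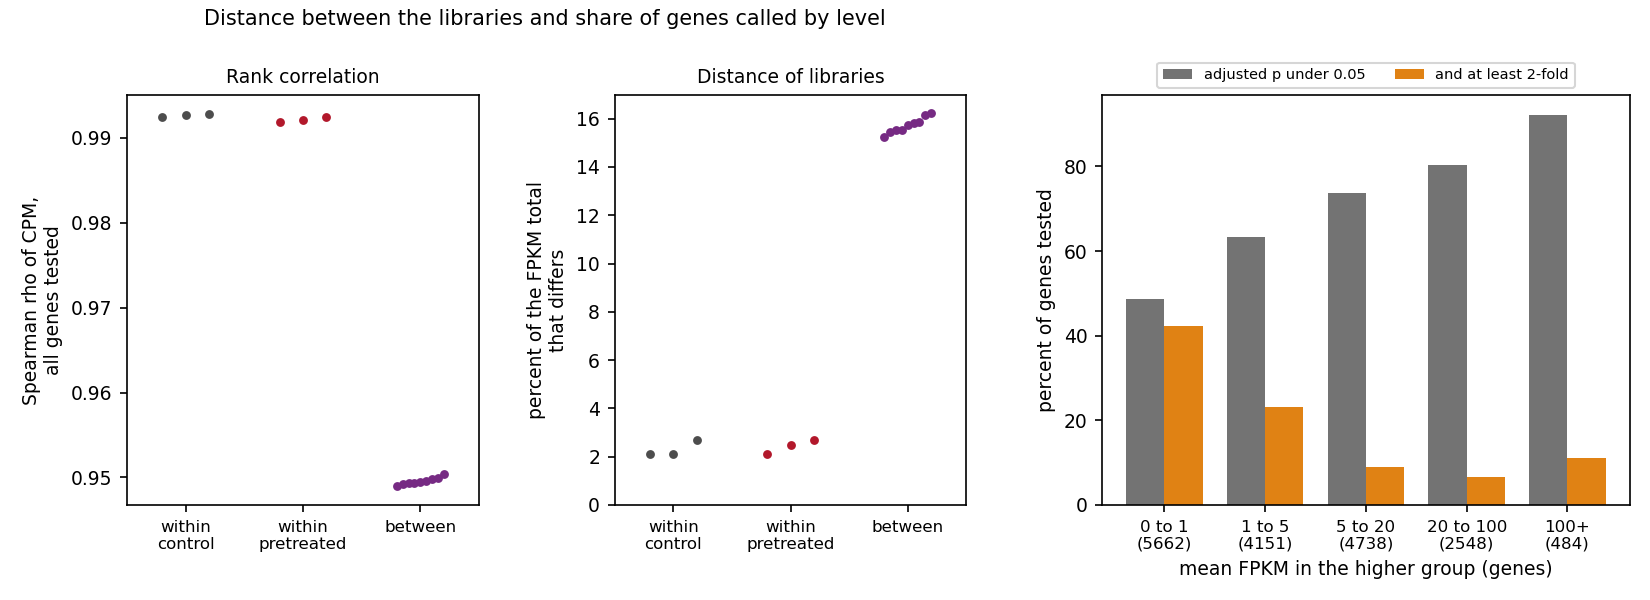
Left and middle, each point is a pair of libraries within control, within pretreated H2O2 or between the groups, shown by Spearman correlation of CPM across the genes tested (axis not from 0) and by the percent of the FPKM total that differs. Right, the percent of tested genes with an adjusted p under 0.05, and with a 2-fold change as well, by mean FPKM in the higher group. Pairs between groups lie at 15.3% to 16.3%, and the share called is greatest, 92.1%, at 100 FPKM or more.

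The share called grew with the level of the gene. It was 73.7% at 5 to 20 FPKM (1323 genes higher, 2167 lower), 80.4% at 20 to 100 FPKM (1261 higher, 788 lower) and 92.1% of the 484 genes at 100 FPKM or more (374 higher, 72 lower). Below 5 FPKM it was 54.8% of 9813 genes. Under 1 FPKM 42.4% of genes were called with a 2-fold change. Of all 2680 genes called with a 2-fold rise, 1151 had 12 or fewer counts over the control libraries. The number of genes with a count rose from 20387 ± 325 (SD, n = 3) in control to 24106 ± 54.7 in pretreated H2O2, and 1536 genes had a count in all 3 pretreated libraries and in no control library, against 74 the other way round. For this measure the two-sided exact permutation p was 0.1, the smallest that 3 libraries against 3 allow.

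Most genes of the 5 FPKM class reached it in both groups. At 5 FPKM or more stood 6686 genes in both groups, 756 in control only and 328 in pretreated H2O2 only. Going from under 1 FPKM in control to 5 or more were 19 genes, among them the stress cytokine Gdf15, the transcription factor Atf3, the growth factor Areg, the phosphatase Dusp2, the adhesion protein Alcam, the costimulatory ligand Cd80 and the granule protease Gzmm. The opposite course was taken by 8 genes, which include the platelet-derived growth factor receptor Pdgfra, the water channel Aqp5, the cyclin Ccng2, the adrenergic receptor Adra1d and the signalling protein Bmp4. Celsr2, a cadherin of planar cell polarity, stood at 0, 0.00461 and 0 FPKM in control, from 4 counts in all, and at 5.47, 5.52 and 5.85 FPKM in pretreated H2O2. Gm24265, annotated as a small nuclear RNA, had no count in control and 9.70, 7.99 and 6.76 FPKM in pretreated H2O2, from 245 counts; such RNAs have no poly(A) tail as a rule, and poly(A) RNA was selected here. The microRNA gene Gm27597 stood at 3.18, 4.93 and 8.08 FPKM in control and at no more than 0.0243 FPKM in pretreated H2O2, where it had 3 counts. Fold changes of genes near 0 in a group depend on the pseudocount: on the log2(FPKM + 1) scale with limma, those of Atf3, Areg and Bmp4 were 2.63, 2.30 and −2.02 in place of 5.12, 3.47 and −3.08.

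**Figure D2:**
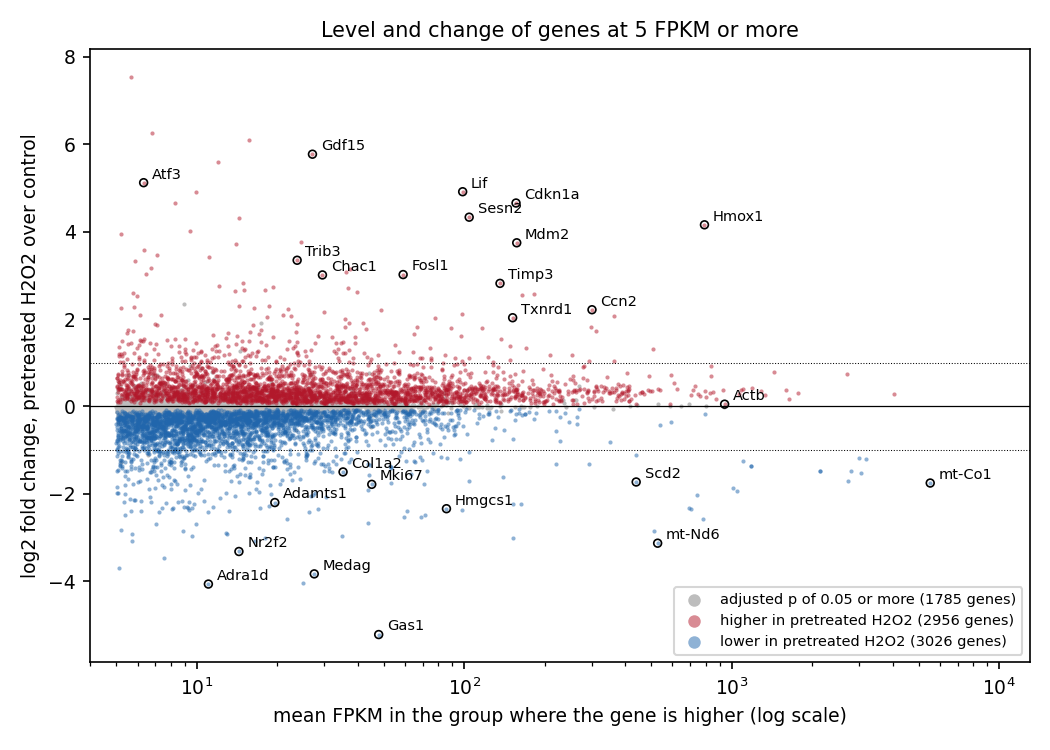
Each point is a gene at 5 FPKM or more, by its mean FPKM in the group where it was higher (log axis) and its log2 fold change in pretreated H2O2 over control, coloured by call, with dotted lines at 2-fold. Celsr2, Gm24265 and Gm27597, with 12 or fewer counts in a group, are not drawn. Hmox1 combines a high level (790 FPKM) with a large rise (4.15), while mt-Co1 and Scd2 lie among the falls of highly expressed genes.

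The largest rises at 5 FPKM or more include cytokines, membrane proteins and genes of unclear role. Gdf15, a circulating cytokine made by stressed cells (chromosome 8, 70629393 to 70632456 on GRCm38), stood at 0.369, 0.507 and 0.621 FPKM in control and 26.5, 28.6 and 26.1 FPKM in pretreated H2O2, a 54.6-fold rise (log2 fold change 5.77, SE 0.13, adjusted p = 7.8e-11). Lif, a cytokine of the interleukin-6 family (chromosome 11), rose from 3.58, 3.25 and 3.19 to 98.3, 99.5 and 97.9 FPKM (log2 fold change 4.91, SE 0.039, adjusted p = 5.9e-14). All 3 pretreated libraries lay far above all 3 control libraries for both genes. The largest rises were picked only among genes whose groups do not overlap, so the lack of overlap was fixed by the choice. Npc1l1, the intestinal cholesterol transporter, reached 5.66 FPKM from 0.0298, and Apobr, a receptor for apolipoprotein B, reached 14.4 from 0.734. The remaining large rises include the sperm membrane gene Tmem95, the oviduct glycoprotein gene Ovgp1 and 5430430B14Rik, which stood at 12, 9.96 and 15.7 FPKM in pretreated H2O2. In mean FPKM the greatest gains were of Actg1, the cytoplasmic gamma actin (from 1634 ± 15.8 to 2687 ± 7.41 FPKM), Hmox1, Eef1a1 and the ferritin light chain Ftl1.

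**Figure D3:**
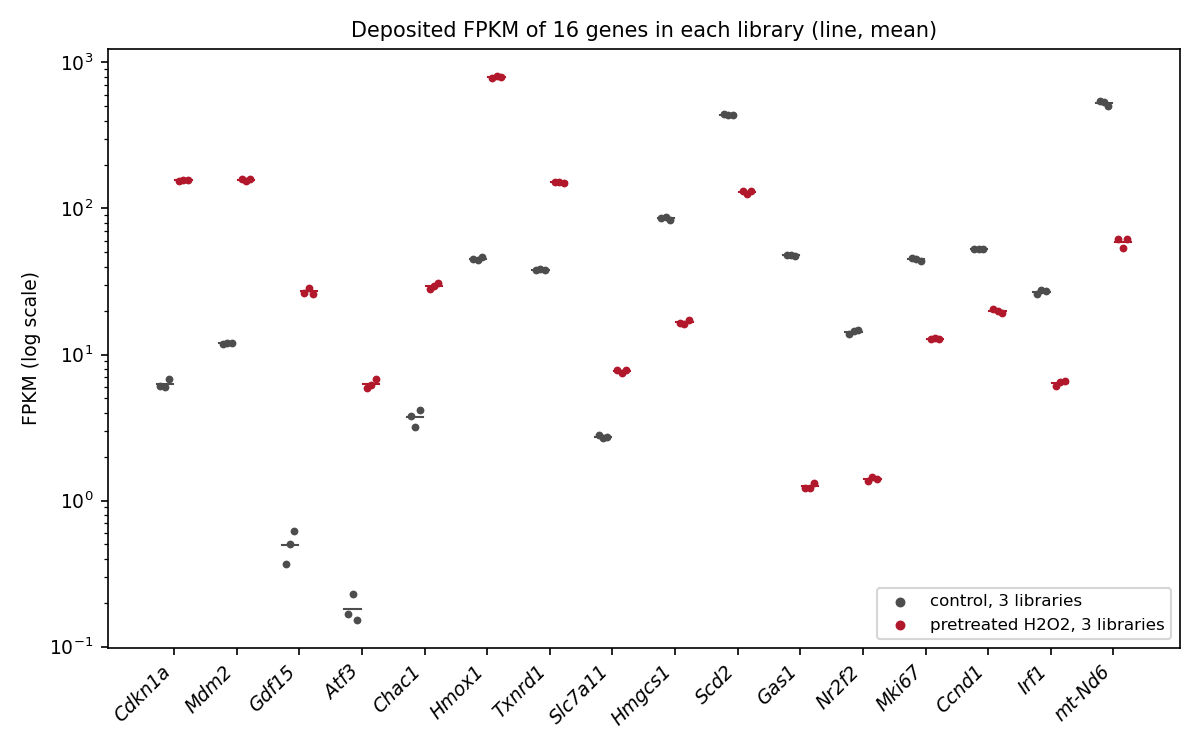
Deposited FPKM of 16 genes in each of the 3 control and 3 pretreated H2O2 libraries (points; log axis), with the group mean as a line. In none of the 16 do the groups overlap, as for 79.7% of all genes at 5 FPKM or more (in CPM). The largest rise of the 16 is that of Gdf15 (54.6-fold).

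Targets of p53 rose in 24 of 28 genes tested and fell in 2, with a median log2 fold change of 1.12 beside 0.04 for all genes tested. At least 2-fold rises were found for 15 of them. Cdkn1a, which encodes the cyclin kinase inhibitor p21 (chromosome 17, 29090976 to 29100727, plus strand), stood at 6.13, 6.02 and 6.80 FPKM in control and 154, 158 and 157 FPKM in pretreated H2O2 (log2 fold change 4.65, SE 0.043, adjusted p = 1.3e-13). For Mdm2, a ubiquitin ligase that marks p53 for destruction, libraries stood at 11.8, 12 and 12 FPKM in control and 159.6, 153 and 158 FPKM in pretreated H2O2 (log2 fold change 3.74, SE 0.026, adjusted p = 2.3e-14). Sesn2, a sestrin that restrains growth signalling, rose from 5.12, 5.05 and 5.68 to 103, 104 and 106 FPKM (log2 fold change 4.33, SE 0.043, adjusted p = 2.0e-13). The death receptor Eda2r rose from 1.09 ± 0.0218 to 14.1 ± 0.521 FPKM and the antiproliferative Btg2 from 4.30 ± 0.428 to 37.4 ± 0.552 FPKM. Sesn1, a sestrin known as a p53 target like Sesn2, went the other way, from 5.00, 4.97 and 5.20 to 1.90, 1.49 and 2.08 FPKM (log2 fold change −1.44, SE 0.12, adjusted p = 1.2e-06). The other member that fell was Ddb2, which recognises damaged DNA, at 1.27 and 0.750 FPKM, named after its values were seen. A pair of members did not pass the test.

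The p53 half-site, a single one of the paired repeats that make up the p53 element, searched by name on either strand, was found in 8 of 22 RefSeq promoter windows of this list (36.4%), beside 6.48% of the 5789 windows of genes at 5 FPKM or more. These windows, from the RefSeq annotation of GRCm38.p6, run from 250 bases before to 50 bases after a gene's start. That of Cdkn1a (chr17:29090729-29091028, plus strand) is shown because this gene had the largest rise of the list, with its 2 matches in capitals.
Cdkn1a: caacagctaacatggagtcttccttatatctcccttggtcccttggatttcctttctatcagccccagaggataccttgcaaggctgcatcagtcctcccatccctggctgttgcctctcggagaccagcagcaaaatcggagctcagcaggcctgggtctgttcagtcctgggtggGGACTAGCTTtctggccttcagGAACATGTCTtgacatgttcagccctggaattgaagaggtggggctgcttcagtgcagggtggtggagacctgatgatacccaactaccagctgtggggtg
The share with a match was 6.29% in the 175 windows of genes that rose at least 2-fold. In other lists searched it ran from 3.57% (integrated stress response) to 23.5% (cholesterol synthesis and uptake, 4 of 17 windows). A match is a description of letters and not a binding site.

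Genes of cell death moved in both directions. Of 15 tested BCL2 family genes, 5 rose and 8 fell (median log2 fold change −0.10), beside 33.9% higher and 30.7% lower of all genes tested. Bbc3, the p53-induced killer PUMA, rose from 1.69, 1.77 and 2.00 to 12.3, 12.2 and 11.9 FPKM (log2 fold change 2.76, SE 0.091, adjusted p = 1.1e-09). Bax, which opens the outer mitochondrial membrane, rose from 50.8 ± 2.54 to 67.8 ± 2.88 FPKM and the survival protein Mcl1 from 70.7 ± 1.43 to 101 ± 2.93 FPKM. Bax had a log2 fold change of 0.45, or 0.25 once offsets for length and GC were in the fit. Bid, which links death receptors to mitochondria, fell from 34.2, 32.2 and 32.9 to 13.4, 15.6 and 15.5 FPKM (log2 fold change −1.13, SE 0.054, adjusted p = 1.9e-08).

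Over all tested members, the integrated stress response had the highest median log2 fold change of the 52 lists, 1.20, with 33 of 34 genes higher and 1 lower. At 5 FPKM or more its median was 1.17, below the 1.36 of p53 targets. At least 2-fold rises were found for 21 of the 34 integrated stress response genes. Atf4, the factor at its centre, rose from 116, 115 and 113 to 254, 252 and 253 FPKM (log2 fold change 1.17, SE 0.020, adjusted p = 9.7e-12). Ddit3, which encodes the death-promoting factor CHOP, rose from 4.25, 3.99 and 4.15 to 13.3, 13.1 and 12.9 FPKM (log2 fold change 1.69, SE 0.076, adjusted p = 1.2e-08). Atf3, a repressor and stress marker, stood at 0.166, 0.228 and 0.151 FPKM in control and 5.93, 6.23 and 6.81 FPKM in pretreated H2O2 (log2 fold change 5.12, SE 0.16, adjusted p = 7.4e-10). Chac1, which breaks down glutathione, stood at 3.82, 3.18 and 4.18 FPKM in control and 28.1, 29.3 and 31 FPKM in pretreated H2O2 (log2 fold change 3.01, SE 0.096, adjusted p = 8.5e-10), and Trib3, a pseudokinase that restrains ATF4, rose from 2.38 ± 0.0502 to 23.7 ± 0.563 FPKM. The groups did not overlap for any of these genes, as for 79.7% of all genes at 5 FPKM or more. The exception was Slc38a2, an importer of neutral amino acids that is a known ATF4 target, which fell from 57.3, 56.1 and 55.7 to 39.8, 39.1 and 40.4 FPKM (log2 fold change −0.47, SE 0.022, adjusted p = 1.5e-08).

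The CEBP-ATF element, to which ATF4 binds with CEBP partners, was searched as TGATGCAA on both strands of the same windows. It was found in 8 of 175 windows (4.57%) of genes at 5 FPKM or more that rose at least 2-fold, in 0 of 283 windows of genes that fell at least 2-fold, in 36 of 5789 (0.622%) at 5 FPKM or more and in 249 of 27025 (0.921%) of all RefSeq genes with a window. The 8 genes were Atf3, Chac1, Slc7a11, Zfp672, Nupr1, Tars, Yars and Slc1a4. Of the integrated stress response list 7 of 28 windows (25%) held it. The windows of 4 of the genes are shown with the element in capitals, as examples of rises within this list: Atf3 (chr1:191183284-191183583, minus strand), Chac1 (chr2:119350992-119351291, plus strand), Slc7a11 (chr3:50443564-50443863, minus strand) and the stress-induced chromatin protein Nupr1 (chr7:126625421-126625720, minus strand).
Atf3: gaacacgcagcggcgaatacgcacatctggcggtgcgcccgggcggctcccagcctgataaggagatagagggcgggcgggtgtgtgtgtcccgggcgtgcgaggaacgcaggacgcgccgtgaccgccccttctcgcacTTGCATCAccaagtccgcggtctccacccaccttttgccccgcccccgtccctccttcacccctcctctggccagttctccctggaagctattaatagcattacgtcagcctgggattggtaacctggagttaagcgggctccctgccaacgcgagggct
Chac1: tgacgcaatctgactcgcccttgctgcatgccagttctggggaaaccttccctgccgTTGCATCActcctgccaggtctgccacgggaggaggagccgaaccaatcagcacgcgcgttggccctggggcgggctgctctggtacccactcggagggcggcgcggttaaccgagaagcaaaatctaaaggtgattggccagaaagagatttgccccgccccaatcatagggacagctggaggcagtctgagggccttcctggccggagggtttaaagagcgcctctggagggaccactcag
Slc7a11: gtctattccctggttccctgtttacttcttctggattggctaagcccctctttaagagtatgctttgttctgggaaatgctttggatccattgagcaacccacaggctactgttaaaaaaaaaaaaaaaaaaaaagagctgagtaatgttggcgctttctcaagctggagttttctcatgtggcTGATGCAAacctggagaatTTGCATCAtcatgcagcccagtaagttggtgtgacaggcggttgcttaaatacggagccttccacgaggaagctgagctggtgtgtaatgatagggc
Nupr1: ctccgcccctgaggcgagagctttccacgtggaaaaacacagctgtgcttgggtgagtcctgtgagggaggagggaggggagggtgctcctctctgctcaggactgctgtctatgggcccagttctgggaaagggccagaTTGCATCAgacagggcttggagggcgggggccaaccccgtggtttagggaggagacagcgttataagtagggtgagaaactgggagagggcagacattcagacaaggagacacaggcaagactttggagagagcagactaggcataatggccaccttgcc
The element lies in the printed direction or as its complement TTGCATCA, and Slc7a11 holds it on both strands. The windows of Atf3 and Nupr1 belong to starts 34706 and 5391 bases from the gene starts in the files. No test was made on these shares.

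Of 23 genes that make serine, asparagine, proline and one-carbon units 18 rose and 1 fell (median 0.56), and of 20 cytosolic tRNA synthetases 17 rose and 2 fell (median 0.41). Asns, asparagine synthetase, rose from 96.1, 92.6 and 91.9 to 214, 204 and 207 FPKM (log2 fold change 1.19, SE 0.026, adjusted p = 4.9e-11). Phgdh, the first enzyme of serine synthesis, rose from 164 ± 1.55 to 249 ± 2.64 FPKM, and Mthfd2, a mitochondrial folate enzyme, from 35.7 ± 0.342 to 74.9 ± 0.539 FPKM. Among the synthetases Sars, which charges serine, rose from 48.8, 48.9 and 47.8 to 97.4, 98.5 and 97.6 FPKM (log2 fold change 1.04, SE 0.020, adjusted p = 2.4e-11), and Tars, which charges threonine, from 32.6 ± 0.523 to 69.4 ± 1.61 FPKM. Qars and Vars, the synthetases for glutamine and valine, were the members lower in pretreated H2O2 (log2 fold changes −0.20 and −0.09). With the length and GC offsets Qars was at −0.35, and the call of Vars was lost in several alternatives. Of 23 amino acid transporters 10 rose and 6 fell (median 0.08). Slc7a1, the arginine and lysine importer, rose from 8.90, 8.95 and 9.29 to 36.1, 35.7 and 35.3 FPKM (log2 fold change 2.01, SE 0.026, adjusted p = 1.3e-12), while its relative Slc7a2 fell from 14.9 ± 0.476 to 6.41 ± 0.130 FPKM.

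NRF2 targets rose in 22 of 32 genes and fell in 3, with a median of 0.36, and 7 rose at least 2-fold. Hmox1, which breaks down heme (chromosome 8, 75093621 to 75100589), stood at 44.9, 44.6 and 46.4 FPKM in control and 777, 802 and 792 FPKM in pretreated H2O2, a 17.8-fold rise (log2 fold change 4.15, SE 0.026, adjusted p = 1.7e-14). Txnrd1, the cytosolic thioredoxin reductase and a selenoprotein, stood at 37.7, 38.3 and 37.7 FPKM in control and 153, 152 and 149.6 FPKM in pretreated H2O2 (log2 fold change 2.03, SE 0.020, adjusted p = 2.0e-13). Srxn1, which repairs overoxidised peroxiredoxins, rose from 27.3, 27.5 and 28.1 to 65.7, 64 and 63.6 FPKM (log2 fold change 1.25, SE 0.027, adjusted p = 4.2e-11). Nqo1, which reduces quinones, rose from 22.4 ± 0.792 to 44.4 ± 1.03 FPKM and the autophagy receptor Sqstm1 from 85.9 ± 2.37 to 298 ± 4.69 FPKM. Gclm, the modifier subunit of glutamate-cysteine ligase, rose from 13.8 ± 0.518 to 19.1 ± 0.162 FPKM, and its catalytic partner Gclc from 15.2 ± 0.562 to 17.3 ± 0.332 FPKM. Cbr1 and Tkt, a carbonyl reductase and the transketolase, fell slightly (log2 fold changes −0.23 and −0.12). The call of Cbr1 was lost without control replicate 2 (adjusted p = 0.0832) and without pretreated H2O2 replicate 3 (adjusted p = 0.0893). The third that fell, the aldehyde oxidase Aox1, was below 1 FPKM. The NRF2 and small MAF element, searched as TGACNNNGC on both strands, was found in 8 of 26 windows of the list (30.8%). It was in 15% of windows at 5 FPKM or more and in 18.3% of those of genes that rose at least 2-fold. Other lists searched ran from 9.09% (p53 targets) to 24% (G1/S and DNA replication) and 28.6% (integrated stress response, 8 of 28 windows). The share is thus not particular to the NRF2 list.

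Enzymes that remove superoxide and peroxide rose in 15 of 26 genes and fell in 4, but apart from Txnrd1 and Srxn1 none rose by 2-fold (median 0.16). Sod1, the cytosolic superoxide dismutase, stood at 28.3, 27.6 and 29.3 FPKM in control and 31.4, 32.6 and 31.3 FPKM in pretreated H2O2 (log2 fold change 0.19, SE 0.031, adjusted p = 2.7e-04). Cat, catalase, stood at 17.4, 17.7 and 16.3 FPKM in control and 19.2, 19.8 and 19.4 FPKM in pretreated H2O2 (log2 fold change 0.21, SE 0.043, adjusted p = 0.00135). Each pretreated library exceeded each control library for both, by a small margin. The groups did not overlap (in CPM) for 79.7% of all genes at 5 FPKM or more. Sod2, the mitochondrial dismutase, stood at 5.15, 5.41 and 5.33 FPKM in control and 5.65, 5.33 and 5.67 FPKM in pretreated H2O2, so that the groups overlapped in FPKM. It did not pass in the main fit (adjusted p = 0.0609), but was called higher in several alternatives, DESeq2 among them (log2 fold change 0.12). Gpx1, the cytosolic glutathione peroxidase, rose from 116 ± 5.32 to 139 ± 2.19 FPKM, with a log2 fold change of 0.29, or 0.12 with the length and GC offsets. Sod3, the secreted dismutase, was lower (log2 fold change −0.87), as was the glutaredoxin Glrx (−1.25). Prdx6, a peroxiredoxin that acts on lipid peroxides, rose from 31.4 ± 0.0587 to 40.7 ± 0.343 FPKM, while the endoplasmic reticulum peroxidase Gpx8 fell from 67.9 ± 1.66 to 58.4 ± 1.54 FPKM.

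Selenoproteins, which carry selenium as selenocysteine, rose in 9 of 19 genes and fell in 6 (median 0.11). Txnrd1 was the only one of the 19 with a 2-fold rise. Selenow, a small redox protein whose level follows selenium supply in several tissues, rose from 55.3, 58.8 and 59.98 to 101, 102 and 99.7 FPKM (log2 fold change 0.83, SE 0.040, adjusted p = 2.3e-08). Gpx4, which reduces lipid hydroperoxides and restrains ferroptosis, stood at 84.5, 84.9 and 90.2 FPKM in control and 86.3, 95.6 and 92.8 FPKM in pretreated H2O2 (log2 fold change 0.11, SE 0.041, adjusted p = 0.0329); the groups overlapped, the call was lost in several alternatives and the log2 fold change was −0.08 with the length and GC offsets. Selenop, the selenium carrier, fell from 6.73 ± 0.609 to 4.97 ± 0.157 FPKM. Of 10 genes of selenocysteine insertion, 2 rose and 5 fell (median −0.26). Sephs2, which makes the selenium donor and is itself a selenoprotein, fell from 24.2, 22.5 and 22.5 to 16.4, 15.6 and 16.1 FPKM (log2 fold change −0.50, SE 0.046, adjusted p = 3.6e-06). Eefsec, the elongation factor for selenocysteine, fell from 19.9 ± 1.25 to 14.6 ± 0.379 FPKM, and the RNA-binding protein Secisbp2 did not pass (adjusted p = 0.172).

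Of 27 tested genes of glutathione synthesis and transfer 11 rose and 4 fell, with a median of 0.04, that of all genes. Slc7a11, the cystine importer that feeds glutathione synthesis, stood at 2.81, 2.67 and 2.74 FPKM in control and 7.86, 7.50 and 7.83 FPKM in pretreated H2O2 (log2 fold change 1.53, SE 0.035, adjusted p = 7.8e-11), and its partner chain Slc3a2 rose from 48 ± 0.334 to 137 ± 0.819 FPKM. Gsta4, a transferase for lipid aldehydes, rose from 7.24, 6.56 and 5.19 to 16.8, 16.5 and 18.7 FPKM (log2 fold change 1.48, SE 0.12, adjusted p = 1.1e-06). Of 20 iron genes 8 rose and 4 fell (median 0.07). In both lists the share higher lay somewhat above the 33.9% of all genes tested, and the share lower under the 30.7%. At 5 FPKM or more, 9 of 15 glutathione genes rose and 1 fell (median 0.22). At that level 8 of 17 iron genes rose and 3 fell (median 0.09). Of all genes at 5 FPKM or more, 38.1% were higher and 39% lower. No test was made on these counts. The largest fall of the iron list was of Slc39a8, a zinc and iron importer (log2 fold change −1.09). The falls of Slc25a28 and Slc11a2 (−0.12 and −0.11) lost their calls in several alternatives. Ferritin heavy chain Fth1 rose from 169 ± 1.95 to 238 ± 0.640 FPKM and light chain Ftl1 from 840.2 ± 27.7 to 1432 ± 43.1 FPKM, the transferrin receptor Tfrc from 33.1 ± 0.756 to 49.97 ± 1.72 FPKM. Fth1 had a log2 fold change of 0.52, or 0.33 with the offsets. Of 18 lipid genes tied to ferroptosis, 6 rose and 8 fell (median −0.13). Acsl3, which activates monounsaturated fatty acids, fell from 23.2, 22.3 and 21.1 to 7.58, 7.08 and 7.72 FPKM (log2 fold change −1.54, SE 0.046, adjusted p = 5.6e-10), and Ptgs2, an inducible cyclooxygenase, rose from 33.9, 31.7 and 31.2 to 99.1, 95.5 and 97.2 FPKM (log2 fold change 1.62, SE 0.032, adjusted p = 2.3e-11). Acsl4, which loads polyunsaturated fatty acids into phospholipids, fell from 19.1 ± 1.44 to 14.6 ± 0.148 FPKM, but with the offsets its log2 fold change was −0.07 and the call ended. Alox15, a lipoxygenase picked here after its values were seen, had no count in control and a mean of 1.04 FPKM, from 544 counts, in pretreated H2O2.

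Heat shock chaperones rose in 14 of 25 genes and fell in 7 (median 0.15). Hspa5, the main chaperone of the endoplasmic reticulum, rose from 211, 207 and 206 to 515, 497 and 509.9 FPKM (log2 fold change 1.31, SE 0.021, adjusted p = 6.0e-12), although only 15 of 28 genes of its unfolded protein list rose and 7 fell (median 0.14). Hspa8, the constitutive cytosolic chaperone, fell from 554, 539.8 and 529 to 402, 386 and 391 FPKM (log2 fold change −0.43, SE 0.022, adjusted p = 3.7e-08). The stress-inducible Hspa1b was low and fell from 4.27 ± 0.221 to 1.70 ± 0.0363 FPKM; its near-identical neighbour Hspa1a shares reads with it, so the pair is uncertain. Hsp90aa1 rose from 193 ± 9.90 to 287 ± 9.93 FPKM and the small heat shock protein Hspb1 from 3.16 ± 0.605 to 9.03 ± 0.843 FPKM. The unfolded protein factor Xbp1 overlapped between the groups (from 34.6 ± 1.04 to 34.8 ± 1.27 FPKM, adjusted p = 0.356). Proteasome subunits rose in 25 of 37 genes and fell in 4, which became 17 and 10 with the offsets. Psmd8, a subunit of the regulatory lid, rose from 46.9 ± 0.211 to 82.7 ± 0.780 FPKM, while the immunoproteasome subunits Psmb8 and Psmb10 fell (log2 fold changes −0.41 and −0.35). Of 33 lysosome genes 17 rose and 5 fell (5 became 10 with the offsets), and of 31 autophagy genes 14 rose and 11 fell. Map1lc3b, which coats autophagosomes, rose from 10.6 ± 0.0974 to 16.2 ± 0.347 FPKM, and Atg2a, which supplies their membrane with lipid, fell from 8.44 ± 0.312 to 4.59 ± 0.152 FPKM.

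Of 25 tested genes of cholesterol synthesis and uptake 24 fell and 0 rose (median −1.19), and 16 fell at least 2-fold. Hmgcs1, which makes the first dedicated precursor of sterols (chromosome 13), stood at 86.7, 86.9 and 83.6 FPKM in control and 16.5, 16.1 and 17.2 FPKM in pretreated H2O2 (log2 fold change −2.34, SE 0.031, adjusted p = 1.3e-12). Sqle, squalene epoxidase, fell from 52.6 ± 0.579 to 20.00 ± 1.12 FPKM, and Msmo1, a sterol oxidase, from 53.1 ± 1.32 to 19.5 ± 0.650 FPKM. Insig1, a sterol sensor partner, fell from 60.8 to 24.9 FPKM. Insig1 and Srebf2 were chosen after their values were seen. Srebf2, which encodes the factor that drives these genes, fell less, by 0.33 on the log2 scale. The promoter window of Hmgcs1 (chr13:119690101-119690400, plus strand) is shown because it had the largest fall of the list, with a match to the sterol element TCACNCCAC in capitals.
Hmgcs1: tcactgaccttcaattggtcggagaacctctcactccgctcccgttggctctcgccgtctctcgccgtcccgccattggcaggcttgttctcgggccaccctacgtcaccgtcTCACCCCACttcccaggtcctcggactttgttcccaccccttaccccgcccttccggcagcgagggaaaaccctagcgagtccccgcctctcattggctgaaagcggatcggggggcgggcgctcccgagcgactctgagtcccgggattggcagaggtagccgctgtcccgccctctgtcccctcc
This motif was found in 1 of 17 windows of the list and in 0.933% of windows at 5 FPKM or more.

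Synthesis and desaturation genes fell in 14 of 22 and rose in 3 (median −0.37), and oxidation genes fell in 18 of 25 and rose in 2 (median −0.24). Scd2, the main desaturase here, stood at 442, 436 and 439 FPKM in control and 132, 126 and 131 FPKM in pretreated H2O2 (log2 fold change −1.73, SE 0.022, adjusted p = 1.3e-12). Elovl6, which lengthens palmitate, fell from 17.2, 17 and 17 to 3.98, 4.38 and 4.60 FPKM (log2 fold change −1.95, SE 0.050, adjusted p = 1.5e-10), and Fasn, fatty acid synthase, from 76.5 ± 1.02 to 36.1 ± 0.607 FPKM. On the oxidation side Acadm, the medium-chain dehydrogenase, fell from 25.8 ± 0.619 to 11.9 ± 0.679 FPKM and Cpt1a, which admits fatty acids to mitochondria, from 9.70 ± 0.237 to 5.45 ± 0.163 FPKM.

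Among 24 glycolysis gene IDs, with the symbol Aldoa standing for 2 of them, 10 were called higher and 5 lower (median 0.05), and with the offsets 7 rose and 11 fell. Pkm, pyruvate kinase, stood at 441, 442 and 441 FPKM in control and 436, 439 and 444 FPKM in pretreated H2O2, and its groups overlapped in FPKM. It did not pass in the main fit (adjusted p = 0.26), but was called higher in several alternatives and lower with the offsets (log2 fold change −0.10). Hk2, an inducible hexokinase, rose from 12.5, 12.7 and 12.6 to 24.2, 23.7 and 23.8 FPKM (log2 fold change 0.95, SE 0.026, adjusted p = 2.2e-10). Among 28 tricarboxylic acid cycle genes, 8 were called higher and 8 lower (5 and 14 with the offsets). Of 18 pentose phosphate and NADPH genes 3 rose and 9 fell. Pgd, phosphogluconate dehydrogenase, rose from 30.02 ± 0.238 to 41.8 ± 0.284 FPKM, while Idh1, the cytosolic NADPH-making isocitrate dehydrogenase, fell from 31.6, 29.7 and 28.9 to 12.7, 10.9 and 10.8 FPKM (log2 fold change −1.36, SE 0.063, adjusted p = 1.5e-08). G6pdx, the first enzyme of the pathway, overlapped between groups (from 67.1 ± 0.666 to 66.3 ± 0.742 FPKM).

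RNA of the mitochondrial chromosome fell throughout its protein genes. Mitochondrial genes held 2.66 ± 0.069% of counts in control libraries and 0.898 ± 0.017% in pretreated H2O2 (SD, n = 3 each; two-sided exact permutation p = 0.1). All 13 protein genes fell, each at least 2-fold, while both ribosomal RNA genes were higher, giving 2 higher and 13 lower of 15 and a median of −1.69. mt-Co1, a subunit of cytochrome oxidase, stood at 5663, 5518 and 5376 FPKM in control and 1639, 1572 and 1608 FPKM in pretreated H2O2 (log2 fold change −1.75, SE 0.023, adjusted p = 1.4e-12). mt-Nd6, a complex I subunit and the only protein gene of the opposite strand (13552 to 14070, minus strand), stood at 544, 537 and 503 FPKM in control and 62.2, 53.4 and 61.9 FPKM in pretreated H2O2, the largest fall of the 13 (log2 fold change −3.13, SE 0.056, adjusted p = 1.2e-11). mt-Rnr1, the small ribosomal RNA, went up from 88.4, 93.1 and 85.7 to 357, 363 and 372 FPKM (log2 fold change 2.06, SE 0.033, adjusted p = 6.6e-12). mt-Rnr2, the large one, rose slightly (from 358 ± 14.1 to 386 ± 7.09 FPKM; log2 fold change 0.14, or 0.35 with the offsets). The libraries were selected for poly(A), and the part of that selection in the ribosomal RNA values was not tested. The smallest fall among protein genes was that of mt-Atp6 (log2 fold change −1.18). Counting the transfer RNA genes as well, 30 of 33 mitochondrial genes at 5 FPKM or more fell. Gm10925 and Gm28661, copies of mitochondrial sequence on chromosome 1, followed (−1.20 and −1.48), and their reads cannot be told apart from those of the mitochondrial genes.

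**Figure D4:**
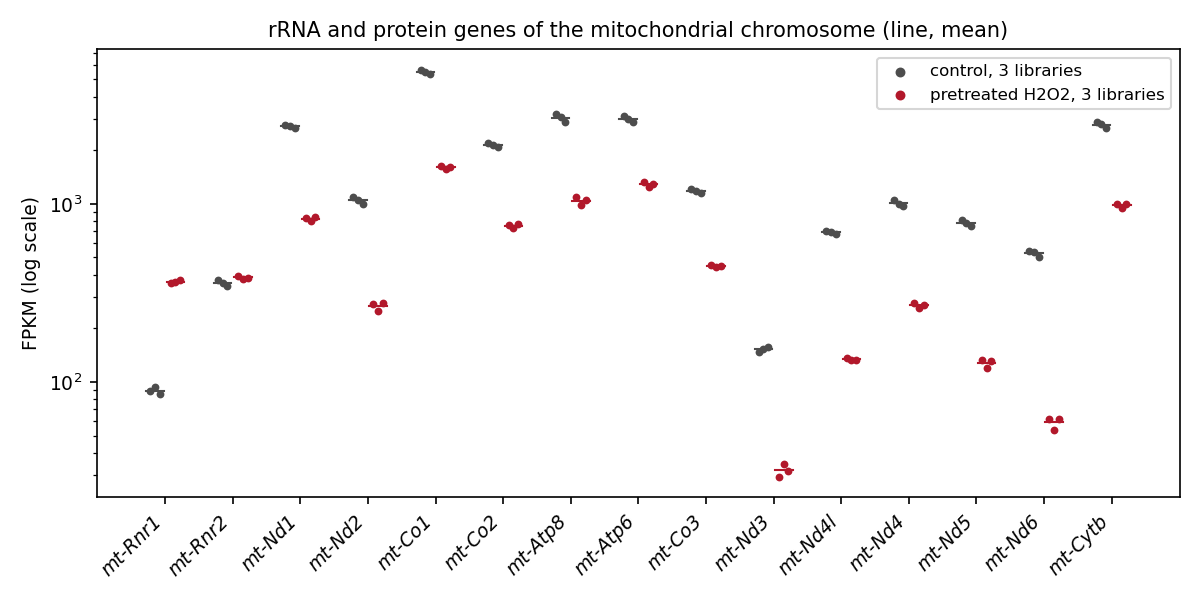
Deposited FPKM (log axis) of the 2 ribosomal RNA and 13 protein genes of the mitochondrial chromosome in each library, with group means as lines. The 13 protein genes lie lower in pretreated H2O2, mt-Nd6 by the most, and mt-Rnr1 lies higher (364 against 89.1 FPKM).

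Respiratory chain subunits of nuclear genes rose in 44 of 76 genes and fell in 3 (median 0.14), none by 2-fold in either direction. This count depends on composition: with the length and GC offsets 17 rose and 18 fell. Atp5b, a subunit of ATP synthase, rose from 261 ± 2.20 to 304 ± 1.84 FPKM (log2 fold change 0.25, or 0.11 with the offsets). Mitochondrial ribosomal proteins rose in 27 of 78 and fell in 16, against 19 and 32 with the offsets. Without the offsets the share higher was near the 33.9% of all genes tested.

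Genes of cytosolic translation mostly rose. So did highly expressed genes at large: of 484 genes at 100 FPKM or more, 374 were higher, with a median log2 fold change of 0.28. Ribosomal proteins rose in 76 of 78 genes and fell in 0, with a median of 0.36, or 0.17 with the offsets, when 65 rose and 1 fell. Rps2 rose from 1260, 1248 and 1257 to 1590, 1601 and 1577 FPKM, with a log2 fold change of 0.37, or 0.20 with the offsets. Rpl17 was the single member with a 2-fold rise (from 82.6, 98.3 and 107 to 292, 303 and 333 FPKM; log2 fold change 1.72, SE 0.082, adjusted p = 1.9e-08). Ribosome biogenesis genes rose in 34 of 37 and fell in 2 (median 0.42). Rrs1, an assembly factor of the large subunit, rose from 36.7, 36.4 and 37.7 to 74.4, 75.4 and 75.7 FPKM (log2 fold change 1.05, SE 0.027, adjusted p = 1.5e-10), and Fbl, the methyltransferase fibrillarin, from 36.6 ± 0.511 to 53.1 ± 0.583 FPKM. Myc, which drives this programme, rose slightly (from 37.1 ± 0.964 to 39.3 ± 0.413 FPKM, log2 fold change 0.11). Translation factors rose in 44 of 64 and fell in 13 (median 0.31). Eif4ebp1, an inhibitor of cap-dependent initiation and an ATF4 target, rose from 27.3, 28.9 and 27.5 to 53, 57.9 and 52.9 FPKM (log2 fold change 1.00, SE 0.041, adjusted p = 5.9e-09). Eif2ak2, the double-stranded RNA kinase PKR, fell from 8.71, 8.91 and 8.14 to 3.85, 3.57 and 4.43 FPKM (log2 fold change −1.09, SE 0.078, adjusted p = 4.8e-07). Host genes of small nucleolar RNAs and growth-linked long RNAs rose in 17 of 24 and fell in 3 (median 0.78). Snhg1 rose from 51.5 ± 2.29 to 99.6 ± 2.42 FPKM, whereas the nuclear RNA Malat1 fell from 31.3, 31.4 and 31.2 to 11.3, 10.8 and 11 FPKM (log2 fold change −1.47, SE 0.027, adjusted p = 1.5e-11).

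Genes of G1/S and DNA replication rose in 16 of 32 and fell in 9 (median 0.13), whereas 28 of 30 mitosis and G2 genes fell and 1 rose (median −0.54). Mki67, the proliferation marker Ki-67, stood at 46.1, 45.2 and 43.9 FPKM in control and 12.8, 12.9 and 12.8 FPKM in pretreated H2O2 (log2 fold change −1.78, SE 0.024, adjusted p = 1.4e-12). Cenpf and Cenpe, kinetochore proteins, fell from 7.42 ± 0.236 to 2.08 ± 0.154 FPKM and from 22.6 ± 0.673 to 6.86 ± 0.111 FPKM. Ccnb1, the mitotic cyclin, fell less (from 78.2 ± 1.37 to 57.3 ± 2.27 FPKM), and Cdk1, the member called higher, differed by 0.08 on the log2 scale, a call lost in several alternatives. Ccnd1, cyclin D1, stood at 52.7, 53.1 and 53.1 FPKM in control and 20.5, 19.9 and 19.3 FPKM in pretreated H2O2 (log2 fold change −1.38, SE 0.027, adjusted p = 2.2e-11). Ccne2, cyclin E2, rose from 16.5, 15.5 and 15.6 to 27.7, 26.6 and 26.7 FPKM (log2 fold change 0.80, SE 0.035, adjusted p = 1.0e-08), and the replication licensing factor Cdt1 from 32.7 ± 0.526 to 62.7 ± 1.15 FPKM. Of 9 CDK inhibitor and Rb family genes 6 fell and Cdkn1a alone rose (median −0.90), with Cdkn1b, which encodes p27, falling from 27.4 ± 0.0881 to 11 ± 0.391 FPKM. DNA repair and checkpoint genes fell in 25 of 40 and rose in 4 (median −0.30). Atm, the damage kinase, fell from 5.71 ± 0.381 to 2.93 ± 0.204 FPKM. H1f0, a linker histone, fell from 284, 291 and 299 to 113, 117 and 114 FPKM (log2 fold change −1.32, SE 0.026, adjusted p = 2.8e-11).

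Interferon-stimulated genes fell in 21 of 28 and rose in 3, with a median of −1.21. Only 10 of them reached 5 FPKM, of which 8 fell and 1 rose. Irf1, an interferon-induced transcription factor, stood at 25.8, 27.5 and 27 FPKM in control and 6.12, 6.46 and 6.57 FPKM in pretreated H2O2 (log2 fold change −2.04, SE 0.042, adjusted p = 3.5e-11). Ifit2, an inhibitor of viral translation, fell from 6.26, 6.25 and 6.05 to 1.44, 1.32 and 1.30 FPKM (log2 fold change −2.16, SE 0.082, adjusted p = 3.3e-09). Isg15, a ubiquitin-like protein, fell from 60.8 ± 1.96 to 41.8 ± 0.561 FPKM. MHC class I presentation genes rose in 6 of 18 and fell in 9. Targets of NF-kB and chemokines were split, 13 higher and 12 lower of 27. Nfkbia, the inhibitor that NF-kB induces, rose from 12.1 ± 0.776 to 22 ± 0.601 FPKM, while the chemokine Cxcl1 fell from 5.40, 6.04 and 5.39 to 1.03, 1.59 and 1.15 FPKM (log2 fold change −2.12, SE 0.16, adjusted p = 7.7e-07) and the adhesion protein Vcam1 from 28.4 ± 0.720 to 12.4 ± 0.381 FPKM.

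Immediate early and AP-1 genes rose in 19 of 28 and fell in 7 (median 0.42). Fosl1, the FOS relative FRA1, stood at 7.53, 7.49 and 7.30 FPKM in control and 56.9, 60.2 and 60.1 FPKM in pretreated H2O2 (log2 fold change 3.02, SE 0.039, adjusted p = 1.3e-12), and Maff, a small MAF partner of NRF2, at 3.85, 4.55 and 4.70 FPKM in control and 34.3, 36.6 and 37.8 FPKM in pretreated H2O2 (log2 fold change 3.08, SE 0.073, adjusted p = 9.5e-11). Fos itself fell from 7.80, 8.68 and 8.97 to 4.55, 4.89 and 4.59 FPKM (log2 fold change −0.83, SE 0.084, adjusted p = 7.4e-06). Jun stood slightly lower (from 14.1 ± 0.699 to 12 ± 0.210 FPKM), a call that ended with the offsets at −0.09. Dual specificity phosphatases and sprouty genes, feedback brakes on MAP kinases, rose in 9 of 17 and fell in 4 (median 0.68). Dusp5 rose from 17.6, 20.8 and 19.9 to 77.6, 77.8 and 77.3 FPKM (log2 fold change 2.03, SE 0.051, adjusted p = 1.5e-10), and Dusp14 fell from 15.1 ± 0.509 to 5.52 ± 0.218 FPKM. Of 10 tested EGF receptor ligands, receptors and regulators 4 rose and 2 fell (median 0.16). Among the ligands Ereg rose from 2.91 ± 0.303 to 18 ± 0.403 FPKM, Hbegf from 5.92 ± 0.319 to 14.8 ± 0.620 FPKM and Areg from 0.649 ± 0.162 to 7.09 ± 0.414 FPKM. The receptor Erbb2 fell from 17.7 ± 0.139 to 7.90 ± 0.104 FPKM. Vegfa, the vessel growth factor, rose from 23, 22.3 and 23.6 to 97.8, 98.4 and 96.7 FPKM (log2 fold change 2.12, SE 0.027, adjusted p = 1.2e-12), and Ndrg1, another hypoxia-linked gene, from 4.49 ± 0.0119 to 18.3 ± 0.285 FPKM. Of 19 hypoxia targets 7 rose and 6 fell, near the 33.9% higher and 30.7% lower of all genes tested. This count is therefore not a result about the list. At 5 FPKM or more 7 of 13 hypoxia targets rose and 3 fell (median 0.25). Of all genes at that level 38.1% were higher and 39% lower.

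**Figure D5:**
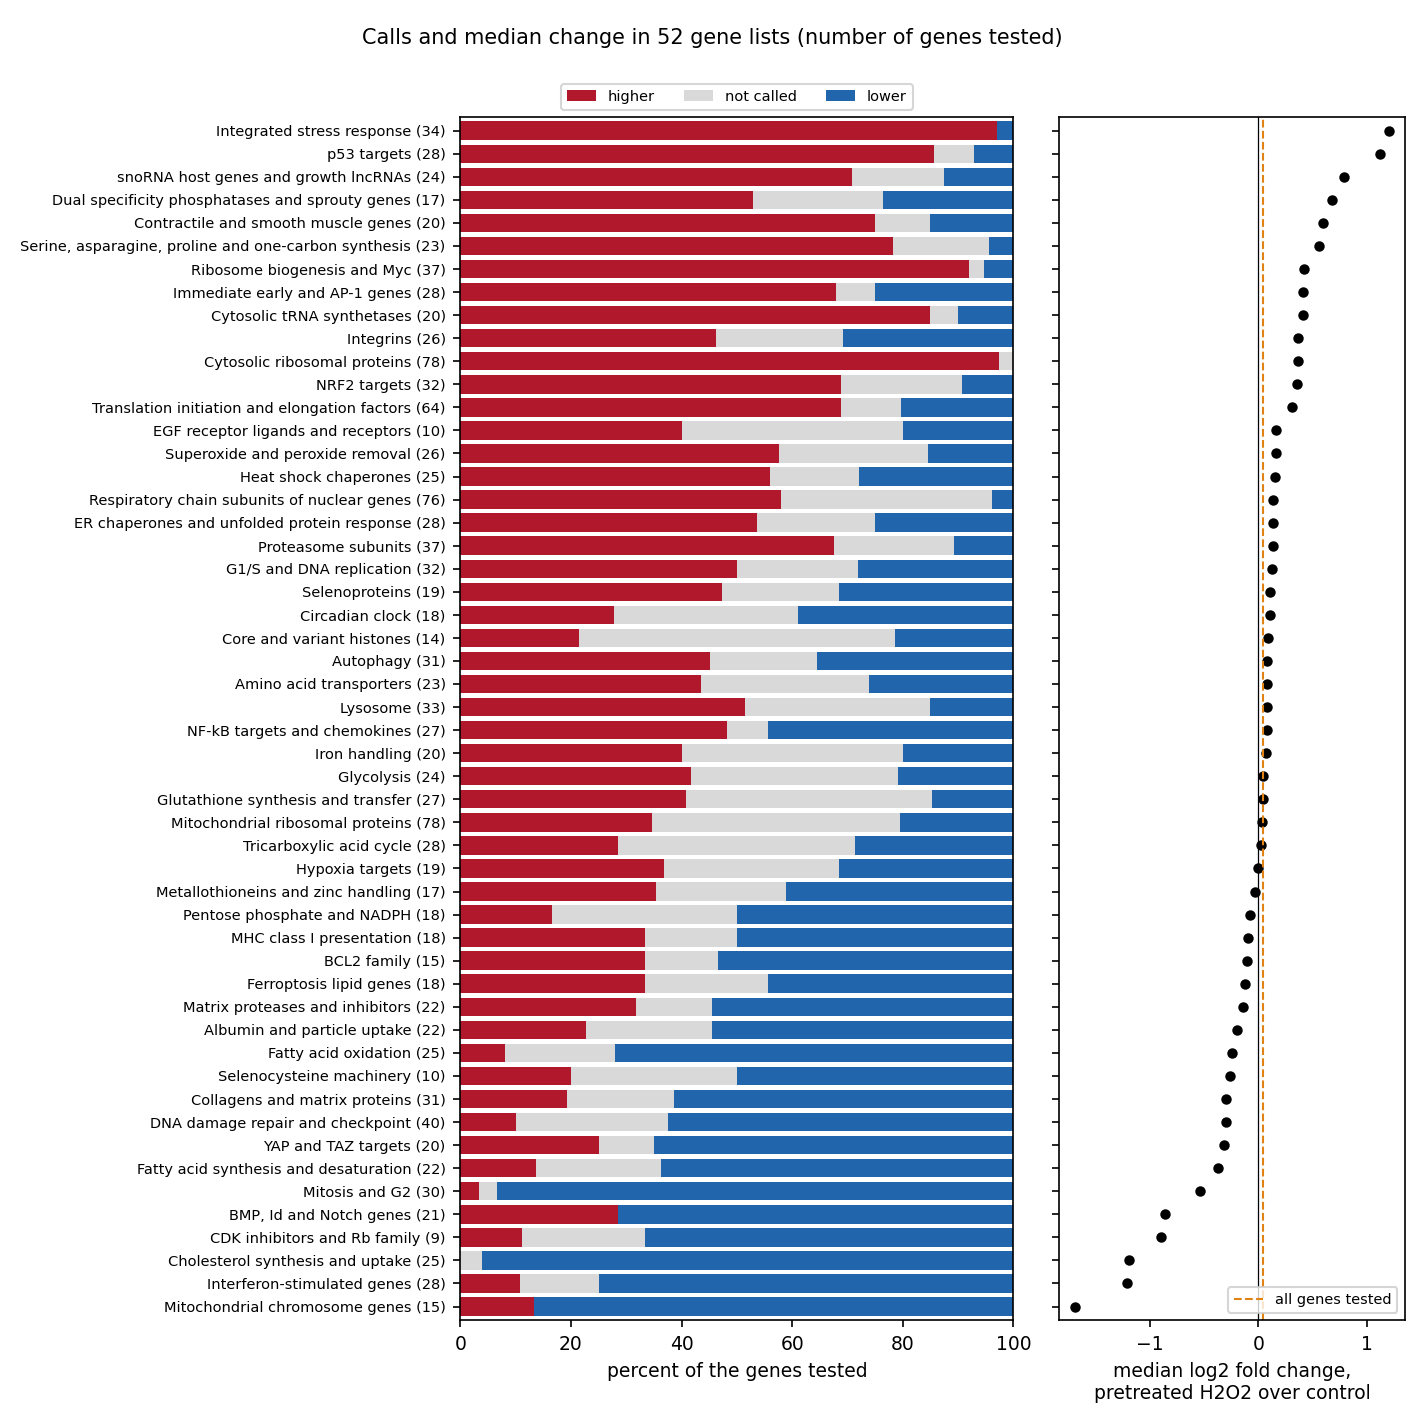
For each of 52 gene lists, the percent of tested genes called higher, not called or called lower in pretreated H2O2 (left; number of genes tested in brackets) and the median log2 fold change (right), with the median over all genes tested as a dashed line. The integrated stress response and p53 lists stand at the top (1.20 and 1.12), and mitochondrial chromosome, interferon-stimulated and cholesterol genes at the bottom (−1.69, −1.21 and −1.19).

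The largest fall at 5 FPKM or more was that of Gas1, a membrane protein that arrests growth and binds hedgehog ligands (chromosome 13). It stood at 47.9, 48 and 47.6 FPKM in control and 1.22, 1.22 and 1.32 FPKM in pretreated H2O2, a 37.2-fold fall (log2 fold change −5.22, SE 0.043, adjusted p = 6.4e-14). Nr2f2, an orphan nuclear receptor of mesenchyme, stood at 13.9, 14.5 and 14.7 FPKM in control and 1.37, 1.46 and 1.40 FPKM in pretreated H2O2 (log2 fold change −3.32, SE 0.042, adjusted p = 1.3e-12), and its relative Nr2f1 fell from 17.9 ± 0.452 to 2.18 ± 0.196 FPKM. Medag, an adipogenesis gene, fell from 28.2, 28.4 and 25.8 to 1.96, 1.71 and 1.98 FPKM (log2 fold change −3.83, SE 0.063, adjusted p = 8.1e-12), and the adrenergic receptor Adra1d from 11 ± 0.119 to 0.643 ± 0.0899 FPKM. Of 21 tested BMP, Id and Notch genes 15 fell and 6 rose (median −0.86). Bmp4 fell from 6.51, 5.16 and 5.48 to 0.624, 0.583 and 0.753 FPKM (log2 fold change −3.08, SE 0.14, adjusted p = 1.7e-08). Id3, an inhibitor of differentiation factors, fell from 86.1 ± 2.12 to 37 ± 1.80 FPKM and the Notch modifier Lfng from 5.36 ± 0.159 to 1.14 ± 0.0616 FPKM, but Id1 rose from 7.47 ± 0.762 to 14.3 ± 0.917 FPKM.

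Collagens and matrix proteins fell in 19 of 31 and rose in 6 (median −0.30). Col1a2, a chain of collagen I, fell from 35.6, 34.8 and 35.2 to 12.3, 11.9 and 12.4 FPKM (log2 fold change −1.50, SE 0.025, adjusted p = 7.6e-12), and its partner Col1a1 from 227 ± 0.874 to 128 ± 0.592 FPKM. Tnc, tenascin C, rose from 21.5 ± 0.127 to 33.8 ± 0.418 FPKM. Fibroblast markers, which share these collagens, fell in 9 of 11 and rose in 2. Timp3, an inhibitor of matrix proteases, stood at 19.8, 19.2 and 20.1 FPKM in control and 138, 133 and 137 FPKM in pretreated H2O2 (log2 fold change 2.82, SE 0.026, adjusted p = 1.3e-13), whereas the protease Adamts1 fell from 19.1, 20.3 and 19.2 to 4.23, 4.27 and 4.02 FPKM (log2 fold change −2.20, SE 0.041, adjusted p = 1.9e-11). Contractile and smooth muscle genes rose in 15 of 20 and fell in 3 (median 0.60). Acta2, smooth muscle actin, rose from 525, 530.1 and 526 to 832, 845 and 833 FPKM (log2 fold change 0.70, SE 0.018, adjusted p = 1.8e-10), and Tagln, an actin-binding protein, from 72.4 ± 1.07 to 148 ± 3.38 FPKM. YAP and TAZ targets fell in 13 of 20 and rose in 5 (median −0.32), although Ccn2, a matrix-linked growth factor of that list, stood at 66.1, 65.7 and 66.4 FPKM in control and 298, 306 and 296 FPKM in pretreated H2O2 (log2 fold change 2.21, SE 0.022, adjusted p = 2.0e-13). Ajuba, a scaffold of the same pathway, fell from 42.2, 45.7 and 43.1 to 11.2, 11.7 and 11.5 FPKM (log2 fold change −1.90, SE 0.037, adjusted p = 2.3e-11). Of 26 integrins 12 rose and 8 fell, but of the 6 at 5 FPKM or more 2 rose and 3 fell.

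Genes through which cells take up albumin and particles mostly fell, 12 of 22 against 5 that rose (median −0.20). Lrp1, a scavenger receptor, stood at 44, 44.3 and 45.3 FPKM in control and 16.9, 17.8 and 17.3 FPKM in pretreated H2O2 (log2 fold change −1.33, SE 0.025, adjusted p = 2.0e-11). Cav1, the coat protein of caveolae, fell from 78, 71.9 and 73.2 to 42.8, 39.96 and 41 FPKM (log2 fold change −0.82, SE 0.035, adjusted p = 7.7e-09). Lrp2, which encodes megalin, was below 1 FPKM in both groups (from 0.684 ± 0.0356 to 0.359 ± 0.0243 FPKM). Clta, a clathrin light chain, rose from 88.6 ± 4.05 to 117 ± 0.978 FPKM. Metallothioneins, which bind zinc, rose, Mt1 from 11.8 ± 0.249 to 23.8 ± 2.03 FPKM and Mt2 from 5.53 ± 1.23 to 17.1 ± 2.43 FPKM, while the whole list of zinc genes was split, 6 higher and 7 lower of 17. Clock genes were split too, 5 higher and 7 lower of 18, with the largest rise for Ciart (from 2.03 ± 0.0540 to 5.10 ± 0.354 FPKM). Over all tested members both splits lay near the 33.9% higher and 30.7% lower of all genes tested and are not results about the zinc and clock lists. At 5 FPKM or more, 3 of 13 zinc genes rose and 7 fell (median −0.18), and 4 of 8 clock genes rose and 2 fell. Of all genes at that level 38.1% were higher and 39% lower.

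Levels in FPKM and fitted changes rest on different scalings, which shows in genes near no change. Tuba1b, an alpha tubulin, stood at 800.0, 798 and 808 FPKM in control and 783, 789 and 804 FPKM in pretreated H2O2 (log2 fold change 0.01, adjusted p = 0.619), overlapping in FPKM. The beta tubulin Tubb5 (from 643 ± 8.89 to 639 ± 1.80 FPKM), the galectin Lgals1 (from 682 ± 24.6 to 695 ± 24 FPKM) and the calcium-binding S100a11 (from 933 ± 7.16 to 904 ± 6.64 FPKM) did not pass the test either. Actb, cytoplasmic beta actin and a common reference gene, was called higher (from 925 ± 11.2 to 940.1 ± 11.7 FPKM, log2 fold change 0.05), but the call was lost in several alternatives and the value turned to −0.13 with the length and GC offsets. Vim, vimentin, was called higher (from 577 ± 4.13 to 585 ± 2.63 FPKM) and likewise turned, to −0.02. The direction of these 6 genes depends on the scaling, while none of the 151 named genes with a change of 2-fold or more lost its call or turned in any alternative. Most of the 151 were named for large changes in the main fit, so their stability was partly fixed by the choice.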

How the data were processed

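RNA of 6 HEI-OC1 libraries was sequenced in pairs after poly(A) selection and strand-specific preparation, per the labels' protocols. The authors deposited estimated counts, written as whole numbers, and FPKM per gene. For the aligner and counter, names were not given in the sources used here. The submitters' processing notes name hg38, but of 30411 gene IDs 30318 matched mouse GENCODE M21, 99.5% with the same start, so positions are GRCm38. In the deposited counts the value 4 occurred 9836 times, 3 occurred 4842 times and 5 occurred 3136 times, so they are not read counts, although a test on read counts had been planned; they were used as deposited.

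Counts were filtered with filterByExpr, scaled by TMM and compared with edgeR's quasi-likelihood test (edgeR 4.0.16, R 4.3.3) with Benjamini-Hochberg adjustment, tested first on simulated data. FPKM gives levels. DESeq2 1.42.0, limma 3.58.1, other filters and scalings, offsets for length and GC content, and leaving out each library were alternatives. Library measures had two-sided exact permutation tests (scipy 1.17.1, Python 3.11.15). The members and lists were chosen with earlier results of these data known. Named genes were the 15 largest rises and 15 largest falls among called genes at 5 FPKM or more whose groups do not overlap in CPM, the 8 largest gains and 8 largest losses of mean FPKM, key genes and up to 4 largest changes and 3 contrary members of each list, and the 6 most abundant genes with an interval within 0.2 of no change. Lists share genes: Hmox1 is in the NRF2 and iron lists and Sesn2 in the p53 and stress response lists. Libraries of cells given H2O2 alone were left out. A few list members are counted but not reported by name here.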

Additional observations from a re-analysis of the deposited data

How the results depend on the processing

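The count of genes at 5 FPKM or more with a call and a 2-fold change, 651, became 1611 at 1 FPKM or more, 393 at 10, 309 at 5 in both groups and 1731 at 1.5-fold. Leaving out each library in turn gave 10748 to 11271 calls over all genes, 5692 to 5783 at 5 FPKM or more, 645 to 657 with a 2-fold change, and a median size of the log2 fold change of 0.292 to 0.300. Over all alternatives the calls over all genes ran from 9699 to 11424. Counts divided by 4 gave 10280 calls, and a filter of 1 CPM in 3 libraries gave 9756. Limma on log2(FPKM + 0.1) gave 9699, with 4381 higher and 5318 lower. Total counts alone gave 5666 higher and 5697 lower, so the excess of rises depends on the processing. Of the 651 genes, 643 to 651 were called in the same direction in every alternative and 0 in the opposite one. The replicate block gave 11032 calls. Deviations of same-numbered libraries correlated at 0.0351, −0.00321 and 0.0096. These values show no shared deviation, and the labels do not say whether same-numbered libraries belong together.

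Of 374 named genes 13 changed direction in some alternative, all near no change. With the length and GC offsets the log2 fold changes were −0.13 for Actb, −0.10 for Tuba1b, −0.14 for Lgals1, −0.084 for Tubb5, −0.020 for Vim, −0.0795 for Gpx4, −0.066 for Xbp1, −0.062 for Ldha, −0.10 for Pkm, −0.095 for G6pdx, −0.030 for Bst2 and 0.062 for Clock, and with the replicate block as well they were the same to 2 decimals, with −0.031 for Bst2. S100a11 was at 0.027 with a CPM filter, 0.0089 with DESeq2 size factors, 0.0088 with DESeq2 and 0.021 with counts divided by 4. With limma on FPKM, at either pseudocount, Tuba1b was at −0.018, Tubb5 at −0.0082, Pkm at −0.0060 or −0.0059 and G6pdx at −0.017. With total-count scaling the values were −0.017 for Tuba1b, −0.0077 for Tubb5, −0.0052 for Pkm and −0.017 for G6pdx. With no filter Tuba1b was at −0.0068 and G6pdx at −0.0063. Without control replicate 1 they were at −0.0031 and −0.0083. G6pdx was at 0.0203 without pretreated replicate 3 and at 0.055 with the CPM filter. Tuba1b was at −0.0016 without control replicate 2 and −1.0e-04 without pretreated replicate 3. Apart from the offsets' own construction, the cause was not tested. Depth limits genes with 12 or fewer counts in a group, given without a fold.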
